A study of Rattus norvegicus with 27 samples.

Results

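The genes described here belong to retinoid metabolism and retinoid reception: Crabp1, Crabp2, Adh1c (also listed as Adh1), Aldh1a1, Aldh1a2, Retsat, Rara, Rarb and Rxra. They were chosen by name, with earlier results of these data known. Every probe set that the array annotation pairs with one of them was taken, whatever its change. This gave 10 probe sets for the 9 genes, of 31042 probe sets tested and 14217 named genes. Adh1c had 2 probe sets and the other genes had 1 each.

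Retinol circulates bound to the carrier Rbp4 and is kept in cells as retinyl esters. Alcohol and retinol dehydrogenases oxidise it to retinal, the Aldh1a enzymes turn retinal into retinoic acid, and the Cyp26 enzymes break retinoic acid down. The Crabp proteins carry retinoic acid in the cytosol, and pairs of RAR and RXR receptors bind DNA and change transcription when the acid is bound. Retinoids are known in salivary glands for keeping the epithelium glandular, since lack of vitamin A turns ducts and acini squamous.

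Parotid acini of Sprague Dawley rats (written Sprauge Dawley in the labels) were captured by laser from tissue sections and hybridised to 27 arrays. Embryos gave E18 and E20 (embryonic days), newborn pups gave P0, and older pups P2 and P5, P9 and P15, and P20 and P25 (postnatal days); each of these 9 ages had 3 arrays, no treatment was named, and the labels give no sex. Each array stood for a separate litter per the study's methods. For the comparisons, E18, E20 and P0 form stage 1 (9 arrays). The pairs P2 with P5, P9 with P15 and P20 with P25 form stages 2, 3 and 4, of 6 arrays apiece. These limits come from the study and were set on the same arrays, so differences between stages are no independent evidence for them. Sections came from the whole head at ages to P5, and from P9 on from glands that had been dissected out, so the step from stage 2 to stage 3 and the change of preparation cannot be told apart.

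Values are log2 units of the robust multi-array average (RMA), in which 1 unit is a doubling of the signal. Array medians lay between 5.91 and 6.13. The capture was set beside 9 markers of acinar cells. Their mean lay between 4.17 and 6.50 in stage 1 and between 12.81 and 13.13 in stage 4. This set thus marked the labelled cell type weakly at the earliest ages. At E18 the markers ran from 3.34 (Lpo) to 8.65 (Amy1). Some rose only late, such as Dnase1, from 5.5 at P15 to 13.05 at P20. The low early mean therefore cannot tell immature acini from fewer captured ones. The other tissues of the sections were present too. The mean of 12 fibroblast markers never fell below 8.40, and the mean of 9 muscle markers ran from 4.73 to 12.94 without order by age. Epidermis marker means were 9.07 or more on 5 arrays: replicate 1 of E18 (9.55), of E20 (9.43) and of P0 (9.07), and P5 replicates 2 (10.41) and 3 (9.15). The counts were also computed without 4 of them, chosen from an earlier analysis of these data for raised markers of neighbouring tissue. P5 replicate 3 was kept in that fit.

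Across the 9 ages the genes moved in different directions. By its leading probe set Adh1c rose around birth, stayed high to P20 and was lower at P25. Aldh1a1 was highest at the last ages, Retsat peaked at P2 and P5, and Crabp2, Crabp1 and Rarb were highest before or at birth. Rara stayed within 0.66 units. In a moderated F test over the ages, 7 of the 10 probe sets passed an adjusted p of 0.05, beside 24.5% of all probe sets tested. The other 3 were those of Aldh1a2 (adjusted p = 0.0956), Rxra (0.0763) and Rara (0.916). Because the genes were chosen with earlier results known, setting their share beside that of all probe sets is not a test. Without the 4 arrays 6 passed, and with array weights 9 did, Rara being the exception. In such bulk captures, fewer cells of a type and less RNA per cell cannot be told apart.

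**Figure D1:**
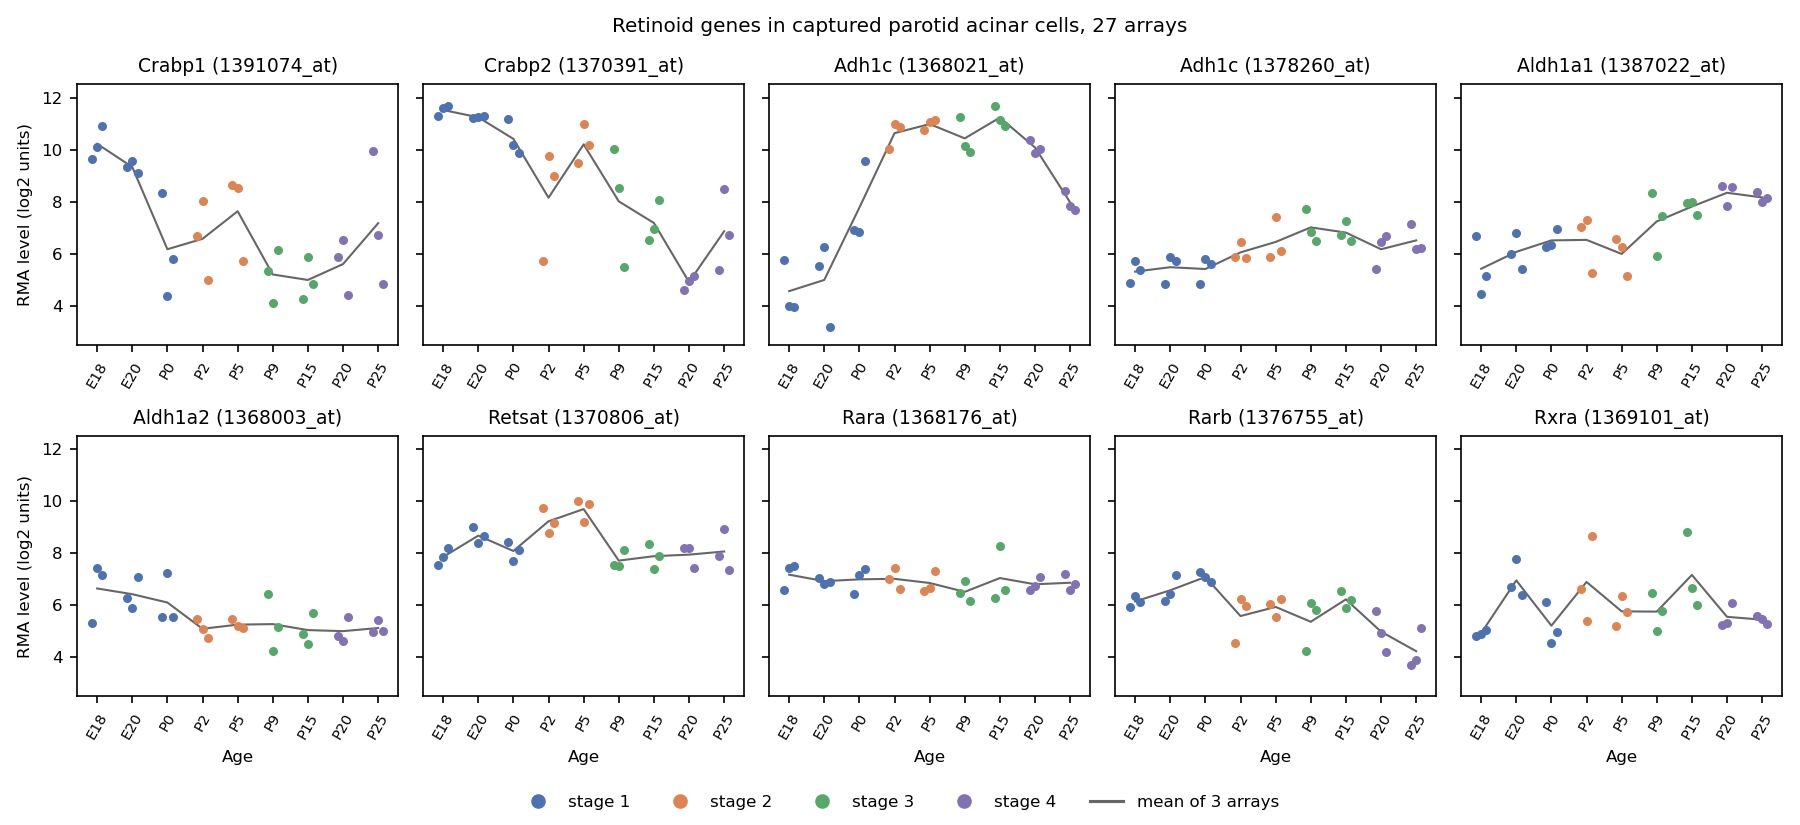
RMA level in log2 units (vertical axis) at the 9 ages (horizontal axis) for the 10 retinoid probe sets; each point is 1 array, coloured by stage, and the line joins the means of 3 arrays. The leading probe set of Adh1c climbs from 4.56 at E18 to 11.23 at P15, Crabp2 drops from 11.52 to 4.91 at P20, and Rara stays between 6.52 and 7.18.

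Of the 10 probe sets, 2 passed in stage 2 against stage 1, both higher in stage 2 (2.96% of all probe sets passed, 1.63% upward and 1.33% downward). They were those of Adh1c and Retsat. In stage 3 against stage 2, 1 passed, the fall of Retsat, beside 0.76% of all (0.28% upward, 0.48% downward). In stage 4 against stage 3, 2 passed, both lower, Adh1c and Rarb, beside 8.36% of all (4.09% upward, 4.27% downward). In stage 4 against stage 1, 7 passed, 3 of them higher and 4 lower, beside 45% of all (27.2% upward, 17.8% downward), so a pass in this contrast was common on the array. The median size of the change over the 10 probe sets was 1.66 units there, beside 0.54 over all probe sets. Given how the genes were chosen, this is not a test either. When the mean of stages 2 and 3 was set against the mean of stages 1 and 4, 1 passed, the higher Adh1c, beside 3.4% of all (2.05% upward, 1.34% downward). None passed in any of the 8 steps between adjacent ages by limma, where 0.0161%, 0.0129%, 0.184%, 0.00644%, 0.029%, 0.0612%, 0.358% and 0.921% of all did, from E20 against E18 to P25 against P20. At an unadjusted p under 0.05 the members that passed numbered 2, 3, 5, 1, 4, 0, 3 and 1 from the first step to the last.

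**Figure D2:**
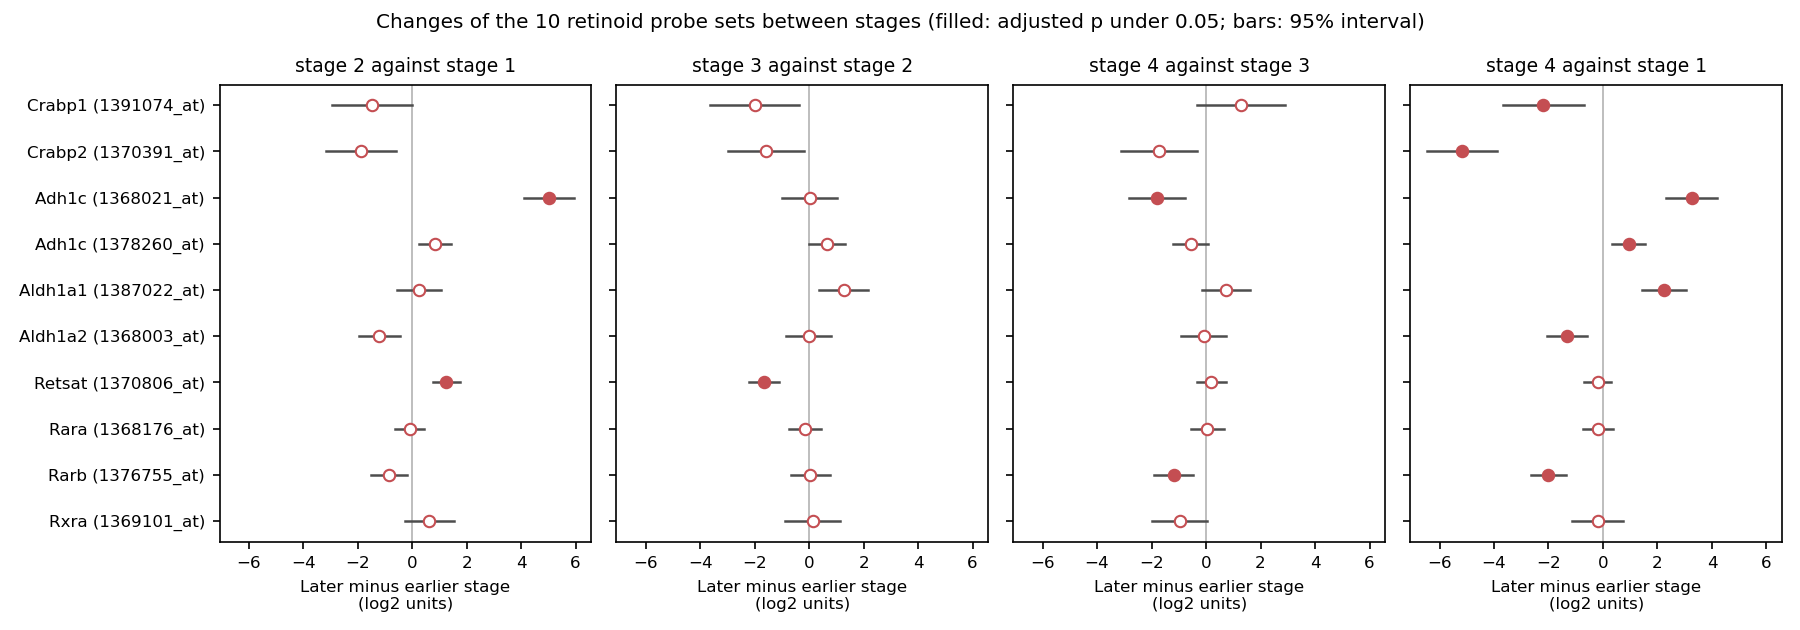
Change between stages in log2 units (horizontal axis, later minus earlier) for the 10 probe sets (vertical axis) in 4 contrasts; points are fitted differences, bars 95% intervals, and filled points have an adjusted p under 0.05. The 2 filled points of stage 2 against stage 1 are Adh1c at 5.03 and Retsat at 1.25, and Crabp2 lies farthest to the left in stage 4 against stage 1 at -5.17.

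Adh1c, the class I alcohol dehydrogenase that acts on retinol and ethanol, rose more than any other member in stage 2 against stage 1. Its leading probe set read 5.74, 4.0 and 3.94 units on the arrays of E18, 5.52, 6.25 and 3.20 at E20, and 6.91, 6.82 and 9.57 at P0. It read 10.03, 10.97 and 10.88 at P2 and 10.76, 11.06 and 11.12 at P5. All 6 arrays of stage 2 thus lay above all 9 of stage 1, and the nearest of the 9 was P0 replicate 3. Groups without overlap were found for 1 of the 10 probe sets in this contrast and for 1.16% of all.

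On the leading probe set the level of Adh1c then held and dropped at the end. It was 11.26, 10.12 and 9.90 at P9 and 11.67, 11.13 and 10.89 at P15. At P20 it was 10.38, 9.85 and 10.02, and at P25 it was 8.42, 7.84 and 7.66. Every P25 array was below every P20 array, although this step did not pass over all probe sets (-2.11 ± 0.69 SE, adjusted p = 0.136). The share of all probe sets with arrays fully apart at these ages was not counted. The separation is therefore a description and not a test of the step.

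Adh1c was 5.03 ± 0.44 units higher in stage 2 than in stage 1, a 32.6-fold difference (95% interval 4.11 to 5.95, adjusted p = 4.93e-07). Stage 3 differed from stage 2 by 0.02 ± 0.49, with an interval from -0.98 to 1.03. From stage 3 to stage 4 the level fell by 1.80 ± 0.49 (3.48-fold, adjusted p = 0.0238), and stages 2 and 3 together were 3.41 ± 0.33 above both ends (adjusted p = 1.3e-06). Stage 4 stood at 3.06 ± 0.44 above stage 1 relative to the median of all probe sets (8.34-fold, adjusted p = 8.03e-06, which belongs to the change before that correction). The late fall lost its pass when P9 replicate 1 (adjusted p = 0.0596), P15 replicate 1 (0.0608) or P20 replicate 2 (0.0525) was left out. The second probe set of Adh1c moved less: it ran from 4.85 to 5.87 in stage 1 (median 5.60), from 5.84 to 7.39 in stage 2 (5.99) and from 6.47 to 7.71 in stage 3 (6.79). Its stage 2 change was 0.85 ± 0.29 (adjusted p = 0.124). In stage 4 it stood at 0.74 ± 0.29 above stage 1 relative to the median (adjusted p = 0.0117). In both contrasts the probe sets had the same sign and different sizes, and only the first passed in stage 2. From stage 3 to stage 4 the second probe set changed by -0.57 ± 0.31 and did not pass (limma adjusted p = 0.263). From P20 to P25 it went the other way, by 0.34 ± 0.44 (adjusted p = 0.761), so the drop at P25 rests on the first.

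Markers of other cells moved with Adh1c. From stage 1 to stage 2, 10 of 11 adipocyte markers rose, and their mean went from between 4.71 and 6.13 to between 6.11 and 8.86. The same contrast raised 3 of 6 myoepithelial markers, whose mean went from between 6.46 and 7.93 to between 8.58 and 9.19, and 5 of 9 acinar markers. With the adipocyte mean as a covariate the stage 2 rise of Adh1c was 4.24 ± 0.95 and no longer passed (adjusted p = 0.189), in a fit in which 11 of all probe sets did. The lead of stages 2 and 3 over both ends was then 2.94 ± 0.61 (adjusted p = 0.0641). The late fall of Adh1c was -1.0 ± 0.71 with the fibroblast mean as a covariate (adjusted p = 0.55). The part of the acinar and myoepithelial cells in the rise was not tested. Over the 27 arrays the genes most like Adh1c were the smooth muscle calponin Cnn1 (Pearson r = 0.905), the duct factor Ascl3 (0.861) and Bpifa2, the parotid secretory protein (0.859); this describes arrays that share an age series and is not a test.

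Retsat, the saturase that reduces retinol to dihydroretinol, was high in stage 2. It read 9.73, 8.80 and 9.16 at P2 and 10.01, 9.20 and 9.90 at P5. Before birth and at P0 it ran from 7.55 to 9.01 (median 8.19), and in stage 3 from 7.39 to 8.36 (median 7.73). Every array of stage 2 was above every array of stage 3, which held for 1 of the 10 probe sets and for 1.58% of all, whereas stages 1 and 2 overlapped.

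Retsat rose by 1.25 ± 0.24 from stage 1 to stage 2 (2.39-fold, adjusted p = 0.00424) and fell by 1.66 ± 0.26 from stage 2 to stage 3 (3.16-fold, adjusted p = 0.004). Stage 4 was -0.39 from stage 1 relative to the median of all probe sets (interval -0.89 to 0.10), which itself moved by 0.19 in that contrast. The fall coincided with the change from head sections to dissected glands, and the step from P5 to P9 was -1.98 ± 0.37 (adjusted p = 0.0552). Adipocyte markers moved the same way, 10 of 11 rising in stage 2 and 3 of 11 falling in stage 3, where their mean lay between 5.28 and 7.42. With the adipocyte mean as a covariate the rise was 0.51 ± 0.49 (adjusted p = 1) and the fall -1.25 ± 0.35 (adjusted p = 0.237). With muscle, epidermis and cartilage means as covariates the rise was 1.23 ± 0.37 (adjusted p = 0.125) and the fall -1.65 ± 0.38 (adjusted p = 0.155), close to the uncorrected sizes. The fall with the fibroblast mean as a covariate was -1.81 ± 0.36 (adjusted p = 0.0557). Of the markers that define adipocytes, the age mean of Adipoq went from 5.06 at E18 to 9.77 at P5 and back to 5.23 at P20, while leptin (Lep) stayed between 4.23 and 5.24. The genes most like Retsat over the 27 arrays were Angptl4 (r = 0.739), Mnda (0.735) and Fabp4 (0.696); Fabp4 is one of the adipocyte markers.

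**Figure D3:**
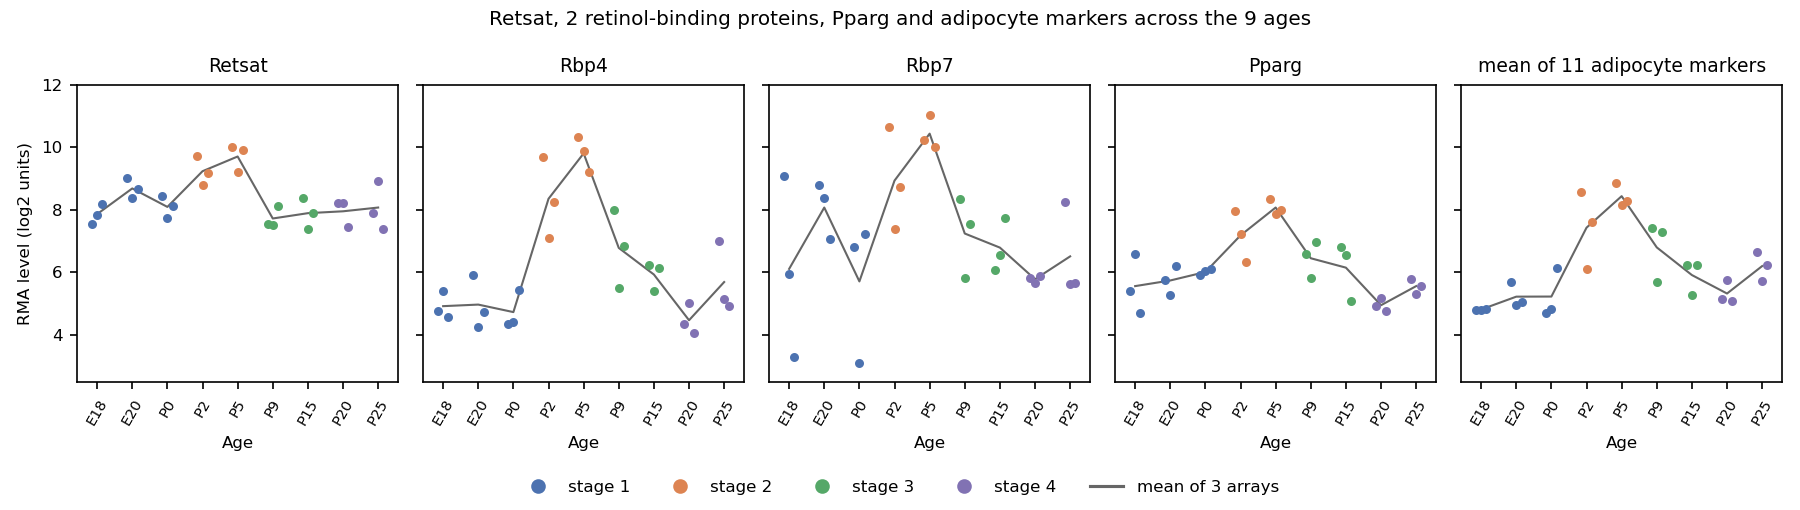
RMA level in log2 units at the 9 ages for Retsat, the retinol-binding proteins Rbp4 and Rbp7, the nuclear receptor Pparg and the mean of 11 adipocyte markers; points are arrays coloured by stage and lines join age means. All 5 have their highest age mean at P5, which is 9.70 for Retsat, 9.80 for Rbp4, 10.43 for Rbp7 and 8.07 for Pparg.

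The Aldh1a enzymes, which make retinoic acid, went in opposite directions. Aldh1a1 read 6.67, 4.46 and 5.15 at E18, 6.0, 6.78 and 5.42 at E20 and 6.24, 6.33 and 6.95 at P0. It read 8.60, 7.85 and 8.57 at P20 and 8.36, 7.99 and 8.13 at P25, so all 6 arrays of stage 4 were above all 9 of stage 1. Relative to the median of all probe sets, stage 4 was 2.06 ± 0.39 above stage 1 (4.16-fold, interval 1.25 to 2.86), with an adjusted p of 0.000125 that belongs to the change before this correction, as do those of the same contrast below. No step between neighbouring stages passed; the nearest was stage 3 against stage 2, 1.27 ± 0.42 (adjusted p = 0.165).

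Aldh1a1 rose over the ages at which 9 of 9 acinar markers rose (median change 8.82) and 9 of 12 fibroblast markers fell (median -1.06). The fibroblast mean went from between 9.40 and 10.44 in stage 1 to between 8.40 and 9.10 in stage 4. With that mean as a covariate the estimate for Aldh1a1 was 2.18 ± 0.83 before correction (adjusted p = 0.124), beside 2.25 ± 0.39 without it. Its error grew, and the fibroblast means of stages 1 and 4 did not overlap, so this fit cannot separate them from age. The genes most like it were Klf9 (r = 0.883), the secretory factor Xbp1 (0.861) and Rpn1 (0.827), a subunit of the N-glycosylation complex.

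Aldh1a2, the enzyme that makes most retinoic acid in the early embryo, was low throughout and lower after birth. It read 5.33, 7.45 and 7.16 at E18, 6.28, 5.90 and 7.10 at E20 and 5.56, 7.23 and 5.55 at P0. In the later stages its medians were 5.16, 5.03 and 4.99, and only P9 replicate 1, at 6.44, and P15 replicate 3, at 5.72, exceeded the highest value of stage 4, 5.57. Stage 4 was -1.52 ± 0.36 from stage 1 relative to the median (2.86-fold lower, adjusted p = 0.00572), with overlapping arrays. The F test did not pass, and the stage 2 change of -1.21 ± 0.36 had an adjusted p of 0.0747. Aldh1a2 gave -2.07 ± 0.75 before correction in stage 4 against stage 1 with the fibroblast mean as a covariate (adjusted p = 0.104).

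Crabp2, the carrier that delivers retinoic acid to nuclear receptors and is itself a known target of the acid, fell most. The 9 arrays of stage 1 lay between 9.87 and 11.69 (median 11.24), and at E20 they read 11.20, 11.24 and 11.29. The arrays of stage 2 lay between 5.72 and 10.98 (median 9.61) and those of stage 3 between 5.49 and 10.02 (7.50). At P20 they read 4.62, 4.94 and 5.16, and at P25 5.36, 8.50 and 6.72. All arrays of stage 4 were below all of stage 1, while P2 replicate 1 (5.72) and P9 replicate 3 (5.49) were already as low as stage 4.

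Relative to the median of all probe sets, Crabp2 stood at -5.37 ± 0.61 in stage 4 against stage 1 (41.2-fold lower, interval -6.64 to -4.09, adjusted p = 1.39e-06). Arrays did not overlap between these stages for 3 of the 10 probe sets, those of Crabp2, Aldh1a1 and Rarb, and for 10.8% of all. No single step between stages passed: stage 2 against 1 gave -1.88 ± 0.61 (adjusted p = 0.111), stage 3 against 2 -1.58 ± 0.67 (0.267) and stage 4 against 3 -1.71 ± 0.67 (0.119). Without P9 replicate 3 the last of these was -2.34 ± 0.60 and passed (adjusted p = 0.0202). The call of stage 4 against stage 1 held in each of the 12 alternatives run and in each of the 27 fits that left out 1 array, with estimates before correction between -5.58 and -4.51. With the fibroblast mean as a covariate it was -4.70 ± 1.31 (adjusted p = 0.0363). The genes most like Crabp2 were Megf6 (r = 0.882), Mfap2 (0.882), a protein of elastic microfibrils, and Actg1 (0.874), a cytoplasmic actin.

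Crabp1, the other cytosolic carrier, was high before birth and scattered afterwards. It read 9.63, 10.11 and 10.92 at E18 and 9.34, 9.56 and 9.09 at E20, with no overlap between these ages or with the next highest age. Each group held 3 arrays, and the share of all probe sets without such overlap was not counted. Neither the step from E18 to E20 (-0.89 ± 1.1) nor that from E20 to P0 (-3.16 ± 1.1) passed. At P0 Crabp1 read 8.35, 4.38 and 5.78. Values in stage 3 lay between 4.10 and 6.16 and at P25 they were 9.95, 6.73 and 4.82, so 1 array at P25 read like the embryonic ones. P25 replicate 1 had an adipocyte mean of 6.65 and a myoepithelial mean of 6.69, the highest and the lowest of stage 4. Relative to the median, stage 4 was -2.38 ± 0.71 from stage 1 (5.21-fold lower, adjusted p = 0.0171). This call was lost without P20 replicate 3 (adjusted p = 0.0514), without P25 replicate 3 (0.0701) and without the 4 arrays chosen for neighbouring tissue (0.062). With the fibroblast mean as a covariate Crabp1 gave -3.53 ± 1.49 before correction (adjusted p = 0.164), and with muscle, epidermis and cartilage means -2.24 (0.0604). In the order of age means the ages below E20, from P5 at 7.63 to P15 at 4.99, overlapped each with its neighbour.

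Rarb, retinoic acid receptor beta and a gene that retinoic acid is known to induce, was the 1 member among the receptors that passed a test with all arrays weighted alike. Its arrays read 5.95, 6.37 and 6.13 at E18, 6.17, 6.43 and 7.15 at E20 and 7.28, 7.08 and 6.90 at P0. In stages 2 and 3 they ran from 4.24 to 6.57. At P20 they read 5.80, 4.94 and 4.21 and at P25 3.70, 3.90 and 5.12, all below the lowest array of stage 1. The highest mean was thus at birth and the lowest at the last age.

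Stage 4 was -2.19 ± 0.32 from stage 1 for Rarb relative to the median (4.55-fold lower, interval -2.85 to -1.53, adjusted p = 5.17e-05). From stage 3 to stage 4 Rarb fell by 1.19 ± 0.35 (2.28-fold, adjusted p = 0.0364), with overlapping arrays. Arrays of stages 3 and 4 were fully apart for 0 of the 10 probe sets and for 3.34% of all. That later fall lost its pass in 8 of the 27 fits that left out 1 array, each of them an array of P9, P15, P20 or P25, with adjusted p up to 0.0977, and in 4 of 11 alternatives. Fibroblast markers fell beside it, 7 of 12 from stage 3 to stage 4. With their mean as a covariate the estimates before correction were -2.24 ± 0.68 against stage 1 (adjusted p = 0.0528) and -1.36 ± 0.53 against stage 3 (0.249). Without it they were -2 ± 0.32 and -1.19 ± 0.35. The genes most like Rarb were Trip6 (r = 0.843), Pak1 (0.841) and Fjx1 (0.827).

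The promoter windows of the members, 250 bases before to 50 after the annotated start in RefSeq's GRCr8 build, were searched for the element that RAR and RXR pairs bind, because Rarb and Crabp2 are known targets. The letters searched were direct repeats of 6 bases with 1, 2 or 5 bases between them, on both strands. Each copy could be AGGTCA, or AGTTCA, or GGGTCA, or GGTTCA, in any combination. All 9 members had a window. Repeats with 5 bases between them were found in 128 of 33469 windows (0.382%), and those with 1 or 2 bases in 0.233% and 0.17%. Among the members only Rarb had such a match, and among the 18 windows of the genes listed as responsive to retinoic acid, Rarb and Cyp26a1 did. The matches are shown with both copies in capitals and the spacer and flanks in lower case, Rarb at chr15:11336410-11336438 on its own strand and Cyp26a1 at chr1:244883724-244883752 on the strand opposite to the gene.
Rarb: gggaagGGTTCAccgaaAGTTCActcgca
Cyp26a1: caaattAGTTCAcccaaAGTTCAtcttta
The Rarb match spans positions 25 to 41 after the start and the Cyp26a1 match positions -92 to -76 before it. Both carry AGTTCA as the second copy, and the first copy is GGTTCA in Rarb and AGTTCA in Cyp26a1. Rarb fell as described, and Cyp26a1 stayed between 3.52 and 4.66 on all arrays (F test adjusted p = 0.949). These readings lay below the lowest array median of 5.91, where a fall may not show, so the patterns of the pair cannot be compared. A match is a run of letters in this window, and Crabp2, which fell most, held none of them there.

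Rxra and Rara, receptors that pair with each other and, in the case of Rxra, with many other nuclear receptors, did not pass the F test or a contrast with all 27 arrays weighted alike. The F test of Rxra passed with array weights (adjusted p = 0.0498), without P2 replicate 2 (0.0248) and without P15 replicate 3 (0.0464). Rxra read 4.83, 4.89 and 5.07 at E18, 6.71, 7.79 and 6.38 at E20, and 6.13, 4.54 and 4.99 at P0. It reached 8.66 on P2 replicate 3 and 8.81 on P15 replicate 1, whose partners read 6.62 and 5.40, and 6.66 and 6.03. The SDs within ages ran from 0.12 to 1.64 (pooled 0.89), beside 2.24 units between the lowest and highest age means. The age means accounted for 53.2% of its variance. Stage 4 lay -0.39 from stage 1 relative to the median (interval -1.31 to 0.52), and the step from E18 to E20 was 2.03 ± 0.68 (adjusted p = 0.752).

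Rara ran from 6.43 to 7.53 in stage 1, from 6.57 to 7.42 in stage 2, from 6.16 to 8.28 in stage 3 and from 6.58 to 7.20 in stage 4. All neighbouring ages in the order of its means overlapped. The age means accounted for 15% of its variance, against 91.6% for the leading probe set of Adh1c and 81% for Crabp2. Stage changes had intervals of -0.64 to 0.45, -0.75 to 0.44 and -0.54 to 0.65 from the first to the last step, so changes of more than about a unit were outside them.

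The other receptors of the family were 3 genes. Rarg and Rxrb passed in no stage contrast, with age means of 5.49 to 6.66 and 6.77 to 8.25. Rxrg read 5.5, 5.83 and 5.39 at P20 and 6.44, 6.06 and 5.79 at P25, against 4.17 to 5.28 in stage 1. It was 0.81 ± 0.17 above stage 1 in stage 4 relative to the median (adjusted p = 0.000119) and 0.75 ± 0.19 above stage 3 (adjusted p = 0.0151). Neither passed with the fibroblast mean as a covariate (1.06 ± 0.37 before correction, adjusted p = 0.092, and 0.79 ± 0.29, adjusted p = 0.207). Its second probe set had 0.23 in stage 4 against stage 1 before correction and did not pass (adjusted p = 0.579). The first had a mean of 5.14 over the 27 arrays, below the lowest array median of 5.91. The part of low signal in its rise was not tested.

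The genes of retinol uptake, binding and storage were measured for 15 genes of a list. In stage 2 against stage 1, 1.63% of all probe sets rose and 1.33% fell. Of the 15 genes, 2 rose and none fell (median of the list 0.01, of all probe sets -0.01). They were both retinol-binding proteins. Rbp4, the plasma carrier, read between 4.25 and 5.93 on the 9 arrays of stage 1, 9.69, 7.11 and 8.26 at P2 and 10.31, 9.88 and 9.21 at P5. It rose by 4.21 ± 0.42 (adjusted p = 2.97e-06) and fell by 2.72 ± 0.46 in stage 3 (adjusted p = 0.00622), where it read 7.98, 5.5 and 6.84 at P9. Rbp7, a cellular carrier known from fat and endothelium, rose by 3.05 ± 0.76 (adjusted p = 0.0292), from arrays as far apart as 3.10 and 9.08 in stage 1, and lost its pass in 8 of the fits that left out 1 array.

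With the adipocyte mean as a covariate Rbp4 gave 1.05 ± 0.50 in stage 2 (adjusted p = 1) and Rbp7 gave -0.34 ± 1.44 (adjusted p = 1). In stage 4 against stage 1 of the same list, 3 of 15 rose and 1 fell: Stra6l, Pnpla4 and Dgat1 were 0.72, 1.08 and 0.74 above the median, and Rlbp1, a retinal-binding protein, was at -1.39. This contrast called 27.2% of all probe sets upward and 17.8% downward. None of the 15 passed by limma with the fibroblast mean as a covariate, where Pnpla4 gave 0.52 ± 0.56 before correction (adjusted p = 0.598) and Stra6l 0.74 ± 0.35 (0.21). Stra6l had a mean of 5.48 over the 27 arrays, and the part of low signal in its rise was not tested. Lrat, which makes retinyl esters, passed in none of these contrasts (age means 3.24 to 4.25).

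The membrane receptor for Rbp4, Stra6, is named here after its values were seen, because its 5 probe sets disagreed. The leading one gave -0.16 ± 0.17 in stage 4 against stage 1 relative to the median and did not pass (adjusted p = 0.884). Another ran from 2.39 to 8.68 in stage 1 (median 5.62) and from 1.92 to 3.04 in stage 4, a change of -3.39 ± 0.67 (adjusted p = 0.000769). A further one gave -2.25 ± 0.63 (adjusted p = 0.0121), while the next gave 0.70 ± 0.17 (adjusted p = 0.000358). The last, 1 of 5, was at -0.09 ± 0.24 (adjusted p = 0.743). No direction can be given for the gene from these values.

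Of 20 other retinol and retinal dehydrogenases, none passed in stage 2 against stage 1 or in stage 3 against stage 2, and 1 rose in stage 4 against stage 3. In stage 4 against stage 1, 6 of 20 rose and 5 fell, with a list median of 0.29 beside 0.19 for all probe sets. Over all probe sets 45% passed there, 27.2% upward and 17.8% downward. The counts were 3 and 4 after quantile normalisation and 1 and 0 with the fibroblast mean as a covariate. The largest fall of the list was in Aldh1a3, the third maker of retinoic acid, which read 7.17 to 8.78 on the arrays of stage 1 and 3.88 to 5.44 in stage 4, without overlap. Relative to the median it was at -3.29 ± 0.56 (adjusted p = 0.000205). Sdr16c5, an epidermal retinol dehydrogenase, was at -2.61 ± 0.53 (adjusted p = 0.00108), Dhrs7 at -1.94 ± 0.32 (0.000239) and Adh5 at -1.24 ± 0.22 (0.000691). With the fibroblast mean as a covariate Aldh1a3 was -3.12 ± 1.21 before correction (adjusted p = 0.128) and Sdr16c5 0.16 ± 0.93 (0.933). Sdr16c5 read highest on E18 replicate 1 (8.75), E20 replicate 1 (8.56) and P5 replicate 2 (9.61), whose epidermis means were 9.55, 9.43 and 10.41. On P0 replicate 1 and P5 replicate 3, with epidermis means of 9.07 and 9.15, it read 6.17 and 6.75. The part of skin in these readings was not tested.

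Among the dehydrogenases that rose, Rdh16 was at 1.10 ± 0.32 in stage 4 against stage 1 relative to the median (adjusted p = 0.00306) and also rose from stage 3 by 1.52 ± 0.35 (adjusted p = 0.0095). Rdh10, which performs the retinol step in the embryo and is named here after its values were seen, was at 1.04 ± 0.40 (adjusted p = 0.017). Its second probe set stood at 0.72 ± 0.18 (adjusted p = 0.000365). Dhrs3, which turns retinal back to retinol, passed in none of the contrasts, with age means from 7.36 to 8.33.

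**Figure D4:**
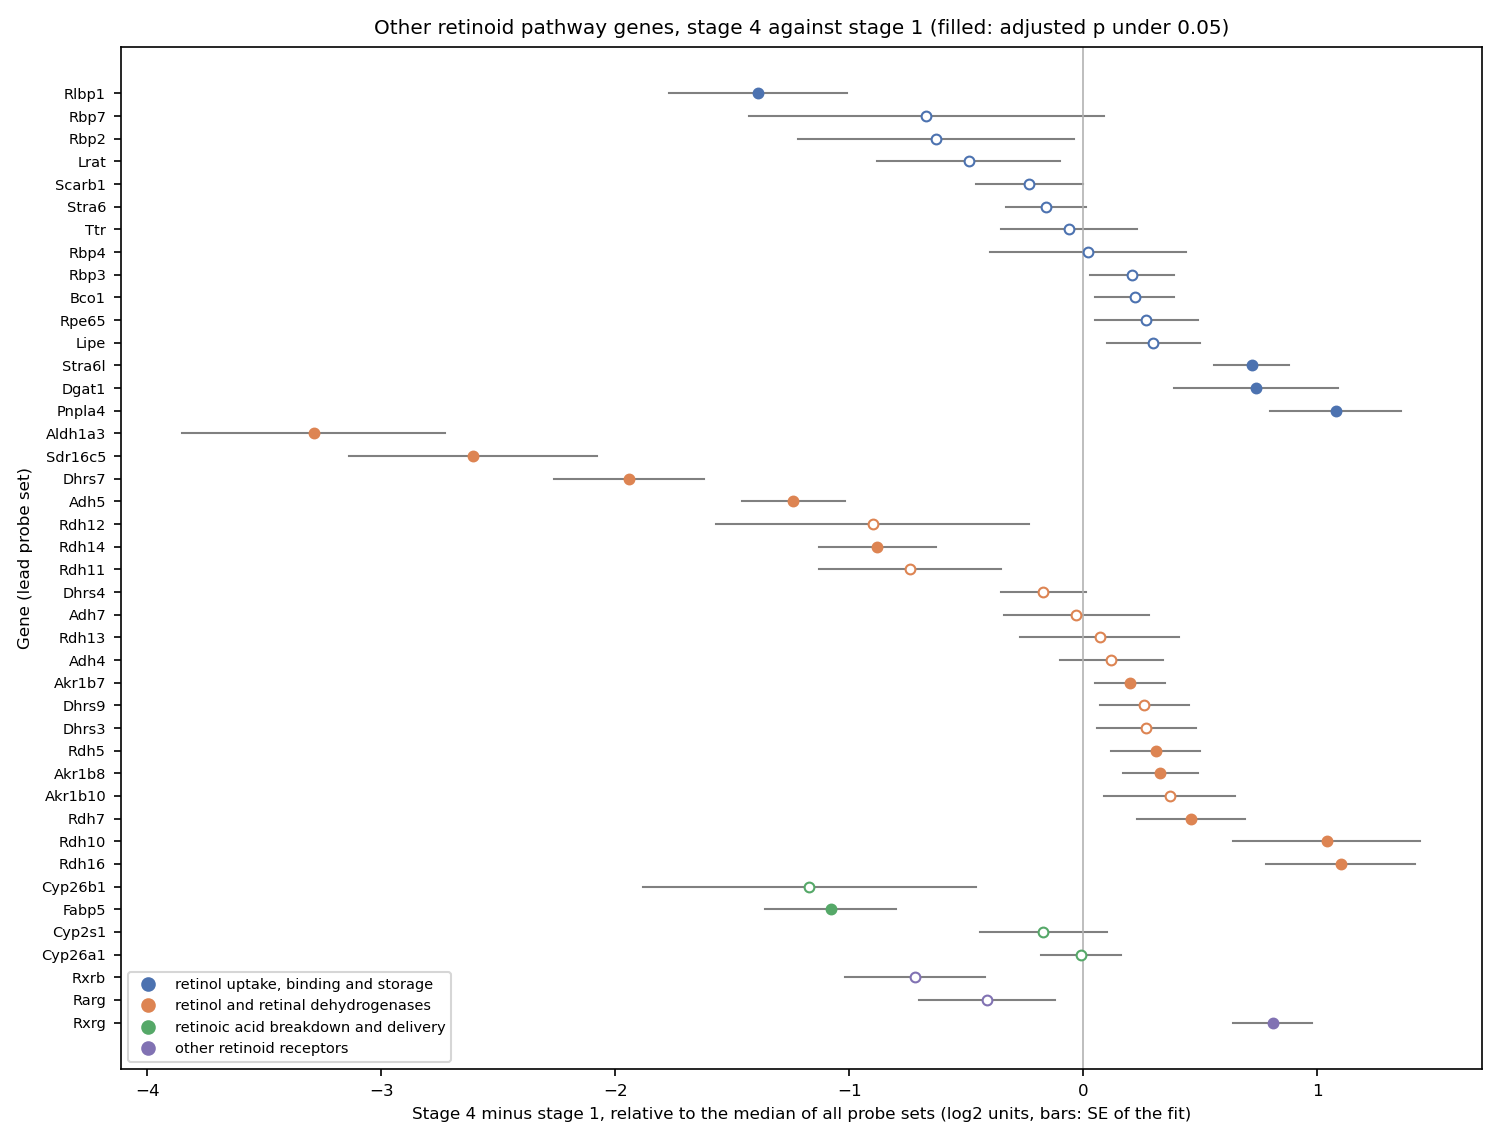
Stage 4 minus stage 1 in log2 units relative to the median of all probe sets (horizontal axis) for 42 other genes of the pathway (vertical axis, lead probe sets) in 4 lists; bars are SEs of the fit and filled points have an adjusted p under 0.05. Aldh1a3 at -3.29 and Sdr16c5 at -2.61 lie farthest to the left, and Rdh16 at 1.10 farthest to the right.

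Retinoic acid breakdown and delivery was measured by 4 genes. Fabp5, which carries retinoic acid and fatty acids, was 1 of 4 that passed in stage 3 against stage 2 and in stage 4 against stage 1, falling by 1.57 ± 0.31 (adjusted p = 0.0178) in the first and standing at -1.08 ± 0.28 relative to the median in the second (adjusted p = 0.0152). The first lost its pass with each set of marker covariates (-0.93 ± 0.37, adjusted p = 0.444, with muscle, epidermis and cartilage), with only the ages compared (0.0701) and without P15 replicate 2 (0.0597), P2 replicate 2 (0.0502) or P5 replicate 1 (0.0554). The second lost it without the 4 arrays (-0.58 ± 0.29 before correction, adjusted p = 0.132), after quantile normalisation (0.0506) and with the fibroblast (0.365) or the muscle, epidermis and cartilage means (0.0817). Cyp26b1 passed in no contrast but read 9.33, 8.86, 7.77 and 9.07 on 4 of the 5 arrays with epidermis means of 9.07 or more, each the highest array of its age. On the other of the 5, P5 replicate 3, it read 6.42, and the highest value on any remaining array was 7.07. The part of skin in these readings was not tested.

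The partners of RXR and the coregulators differed in direction. Of 13 nuclear receptors that pair with RXR or share its partners, 8 rose and none fell in stage 4 against stage 1 (list median 0.63), beside 27.2% of all probe sets upward and 17.8% downward. In the same contrast 6 of 7 liver markers also rose, with a median of 0.63. Over the 27 arrays Nr1h4, Ppara, Nr1i2 and Vdr, which rose, had means of 3.11, 3.89, 4.49 and 4.83. The others that rose, Nr4a1, Thra, Thrb and Nr4a2, had means of 6.27, 6.34, 7.97 and 8.81. The part of low signal in these rises was not tested. Among the 8 were the thyroid hormone receptor Thrb at 1.64 ± 0.28 relative to the median (adjusted p = 3.49e-05) and Nr4a1 at 1.23 ± 0.34 (0.00199). With the fibroblast mean as a covariate 1 of the 13 passed, and before correction Thrb gave 1.84 ± 0.61 (adjusted p = 0.075) and Nr4a1 turned from 1.42 to -0.24 ± 0.59 (0.835). Pparg, the adipogenic receptor, read 7.97, 7.23 and 6.34 at P2 and 8.34, 7.86 and 8.0 at P5, and rose by 1.85 ± 0.30 in stage 2 (adjusted p = 0.000838). With the adipocyte mean as a covariate this was 1.13 ± 0.64 (adjusted p = 1), in a fit where 10 of all probe sets passed upward and 1 downward. The paper calls Pparg a driver of adipocyte differentiation, so the covariate may carry the signal of Pparg itself and this fit cannot tell them apart. By qPCR on independent samples the paper also reported a transient rise of Pparg around P5. Of 13 coregulators, 1 rose and 4 fell in stage 4 against stage 1 (list median -0.41): the acetyltransferase Kat2b was at 0.89 ± 0.22 relative to the median (adjusted p = 0.000606), the corepressor Nrip1 at -1.44 ± 0.27 (0.000887) and Ep300 at -1.01 ± 0.19 (0.00169). None of the 13 passed by limma with the fibroblast mean as a covariate, where these gave adjusted p of 0.127, 0.087 and 0.359. The second probe sets of Kat2b and Ep300 did not pass in stage 4 against stage 1. They gave 0.09 ± 0.28 and -0.07 ± 0.22 before correction (limma adjusted p = 0.817 and 0.822).

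The list of genes known to respond to retinoic acid had 17 measured genes, 2 of them members (Rarb and Crabp2). In stage 2 against stage 1, 1 rose, beside 1.63% of all probe sets upward. In stage 4 against stage 3, 3 fell, beside 4.27% of all downward. In stage 4 against stage 1, 1 rose and 3 fell (list median 0.02 beside 0.19), beside 27.2% of all upward and 17.8% downward. In stage 4 against stage 3 those that fell were Rarb, Rai14 by 1.74 ± 0.37 (adjusted p = 0.00455) and the transglutaminase Tgm2 by 0.94 ± 0.26 (adjusted p = 0.0257), the last losing its pass in 5 of the fits that left out 1 array. With the fibroblast mean as a covariate none of the 3 passed. Rarres2, the adipokine chemerin, rose by 1.18 ± 0.27 in stage 2 (adjusted p = 0.0159). This was 0.24 ± 0.54 with the adipocyte mean as a covariate (adjusted p = 1), and its pass was also lost with the fibroblast mean (0.0547), with the muscle, epidermis and cartilage means (0.436) and without P5 replicate 1 (0.0516). The Hox genes and Meis genes measured, Hoxa5, Hoxb4, Meis1 and Meis2, passed in no stage contrast.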

How the data were processed

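Acini were captured by laser, and their RNA was amplified as whole transcriptome cDNA and hybridised to the Affymetrix rat genome expression array. The authors deposited RMA values in log2 units, background-corrected and normalised between arrays, which were used as given. The 57 control probe sets were left out, leaving 31042, of which 20826 carry 1 gene symbol. One coefficient per age was fitted with limma 3.58.1 in R 4.3.3, stage contrasts were averages of ages, and p-values were two-sided and adjusted by Benjamini-Hochberg over all 31042; ± gives the SE. For genes with several probe sets the one with the highest mean leads. Beyond the members, up to 6 genes per list with the smallest F-test p were named, all genes of lists of 6 or fewer, Rbp4 and Pparg. Adh5, Dgat1, Dhrs3, Hoxa5, Lep, Lrat, Meis1, Meis2, Rdh10 and Stra6 were named after their values were seen. Members and lists were chosen with earlier results of these data known. No batch was labelled. Precision is limited by how many arrays there are. Replicate numbers mark separate litters within an age, and the main fit did not pair arrays by number. The fit was tested on simulated data. Alternatives comprised 13 settings and leaving out 1 array at a time.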

Additional observations from a re-analysis of the deposited data

Results flagged for a closer look

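In 4 of 40 groups of arrays, 1 array stood apart by Dixon's ratio (its gap to the nearest array over the range of the group), where chance gives about 1 in 20. In stage 2, the leading Adh1c probe set read 10.03 on P2 replicate 1, with the next array at 10.76 (ratio 0.671). In stage 3, Aldh1a1 read 5.91 on P9 replicate 2, with the next at 7.46 (0.638). Rara read 8.28 on P15 replicate 2, with the next at 6.93 (0.637), and Rarb read 4.24 on P9 replicate 1, with the next at 5.81 (0.674).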

How the results depend on the processing

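Of the 10 retinoid probe sets, the number passing by limma depended mostly on marker covariates. With the fibroblast level as a covariate, 4 passed the F test (7 without it), 2 in stage 4 against stage 1 (7), 0 in stage 4 against stage 3 (2) and 0 in stage 3 against stage 2 (1). With the adipocyte level, 0 passed in stage 2 against stage 1 (2), in stage 3 against stage 2 and in mid-development against both ends (1). With muscle, epidermis and cartilage levels, 0 passed in stage 3 against stage 2 and in stage 4 against stage 3. In this last contrast 1 passed among probe sets with a mean of at least 6, without the 4 arrays chosen for neighbouring tissue, and with only the ages compared. Array weights gave 9 in the F test (Aldh1a2 and Rxra added) and 4 in stage 2 against stage 1, and the filter on the mean gave 2 in mid-development. Leaving out 1 array gave 7 to 8 in the F test, 2 to 3 in stage 2 against stage 1, 0 to 2 in stage 4 against stage 3 (0 without P15 replicate 1 or P20 replicate 2), 6 to 7 in stage 4 against stage 1, 1 to 2 in mid-development and 0 to 1 in the steps between ages. Quantile normalisation, array weights and the replicate block each passed 1 step, Retsat from P5 to P9. The replicate block changed no other count. Same-numbered arrays of different ages had correlations of deviations from -0.108 to 0.459 (median 0.014). Those of different numbers ran from -0.279 to 0.141 (median -0.00901). By mean correlation, 16 of 27 arrays were closest to arrays of their own number. What same-numbered arrays share was not tested. The labels name no pairing, and the main fit did not pair arrays. No member's value reversed. Covariates also cost calls elsewhere: over all probe sets, stage 4 against stage 1 passed 13977 without and 2005 with the fibroblast level, stage 2 against stage 1 passed 920 and 11 with the adipocyte level, and the latter left 35 of 1054 in mid-development. Centring arrays on their medians moved the share of higher calls in mid-development from 60.4% to 48.4%.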
